A study of Mus musculus with 4 samples.

Results

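Oligodendrocyte and myelin genes were examined in the cerebellum of mice that lack Derlin-2 in the central nervous system. The 34 genes are a list of named genes, and a probe was taken as theirs where its RefSeq accession maps to one of them. This gave 47 probes, out of 56605 probes and 22911 named genes on the array. The genes were grouped by role into 12 structural and membrane proteins of myelin, 5 lipid and metabolic enzymes, 7 transcription factors of the lineage and 10 other genes enriched in oligodendrocytes. A member was counted as measured where both arrays of a group read a probe of it well above background; 33 genes were, and each passed that mark on all 4 arrays.

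RNA was taken from the cerebellum of C57BL/6 mice at postnatal day 28, 2 control and 2 knockout (KO), and each mouse has 1 one-colour Agilent array. Control mice were Derlin-2flox/flox, and KO mice came from crosses of Derl2flox/flox mice with mice in which the promoter of nestin, a gene of neural precursors, drives Cre recombinase; these precursors give rise to neurons, astrocytes and oligodendrocytes. Derlin-2, the product of Derl2, sits in the membrane of the endoplasmic reticulum and helps to remove misfolded proteins. The labels name no Cre transgene for the controls, so effects of Cre and of the deletion cannot be told apart.

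Oligodendrocytes wrap axons in myelin, a compacted membrane that is unusually rich in galactolipids and in a small set of membrane proteins. Precursors are committed by transcription factors such as Olig2 and Sox10, and Myrf switches on the myelin genes as the cells mature. Myelin membrane and secretory proteins are made at the endoplasmic reticulum, and in the cerebellum myelination is largely a process of the weeks after birth. In whole tissue, fewer oligodendrocytes and less RNA per oligodendrocyte cannot be told apart.

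Values are log2 signals less the array's 75th percentile, so that 0 is a probe as bright as that percentile; levels of different probes are not compared. Derl2 itself checks the labels: its brighter probe read 2.13 and 2.20 in the controls and 0.81 and 0.70 in KO, which is 37.6% of control. Between 66.4% and 69.4% of the spots of an array were well above background, with 0 saturated. The arrays shared 1 slide with each group in its own positions, so position and group cannot be told apart. The array of control replicate 2 stood apart in markers of choroid plexus, with a summed level of 148 in units of the 75th percentile against 7.88 to 8.25 on the other arrays. On control replicate 1, 1441 spots lay on a patch of raised local background, and 1 member probe, that of Ninj2, was among them. The marker lists of the labelled tissue were present, since all 10 granule cell and all 10 Purkinje cell genes were well above background on every array.

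Across all 37516 probes tested with limma, 0 differed (0%) after Benjamini-Hochberg adjustment at a threshold of 0.05, and 5265 (14%) had an unadjusted p below it. No member passed the adjusted threshold either, and the lowest adjusted p among the members was 0.273. With 2 arrays a group, the smallest two-sided p of an exact permutation test is 0.333. The differences are therefore given as values with their errors, on the brightest probe of each gene.

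Most members, which were chosen with earlier results of these data known, had a lower mean signal in KO. In 32 of the 33 genes the KO mean lay below the control mean, against 63.9% of the 16524 genes tested, and the median difference was −0.36 on the log2 scale, or 78.2% of control, against −0.06 over all genes. Both KO arrays lay below both control arrays for 27 genes, against 32.1% of all genes, and both lay above for 1 gene, against 13.8%. An unadjusted p under 0.05 was reached by 13 genes in the lower direction, against 5.65% of all genes, and by 1 in the higher direction, against 3.16%. The count of 13 moved in both directions when an array was left out. Such a fit takes the spread of the single array from the group that has 2. The median difference of the members then ran from −0.46 to −0.24. The count of 32 depends on the scaling and on single arrays. Mal, Mobp and St18, all near 0, turned to the higher side under quantile normalization and under scaling to spike-in probes, which left 29. It was also 29 without control replicate 1 and without KO replicate 1. Without control replicate 2 and with the mean of a gene's probes it was 31, and without KO replicate 2 it stayed at 32.

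**Figure D1:**
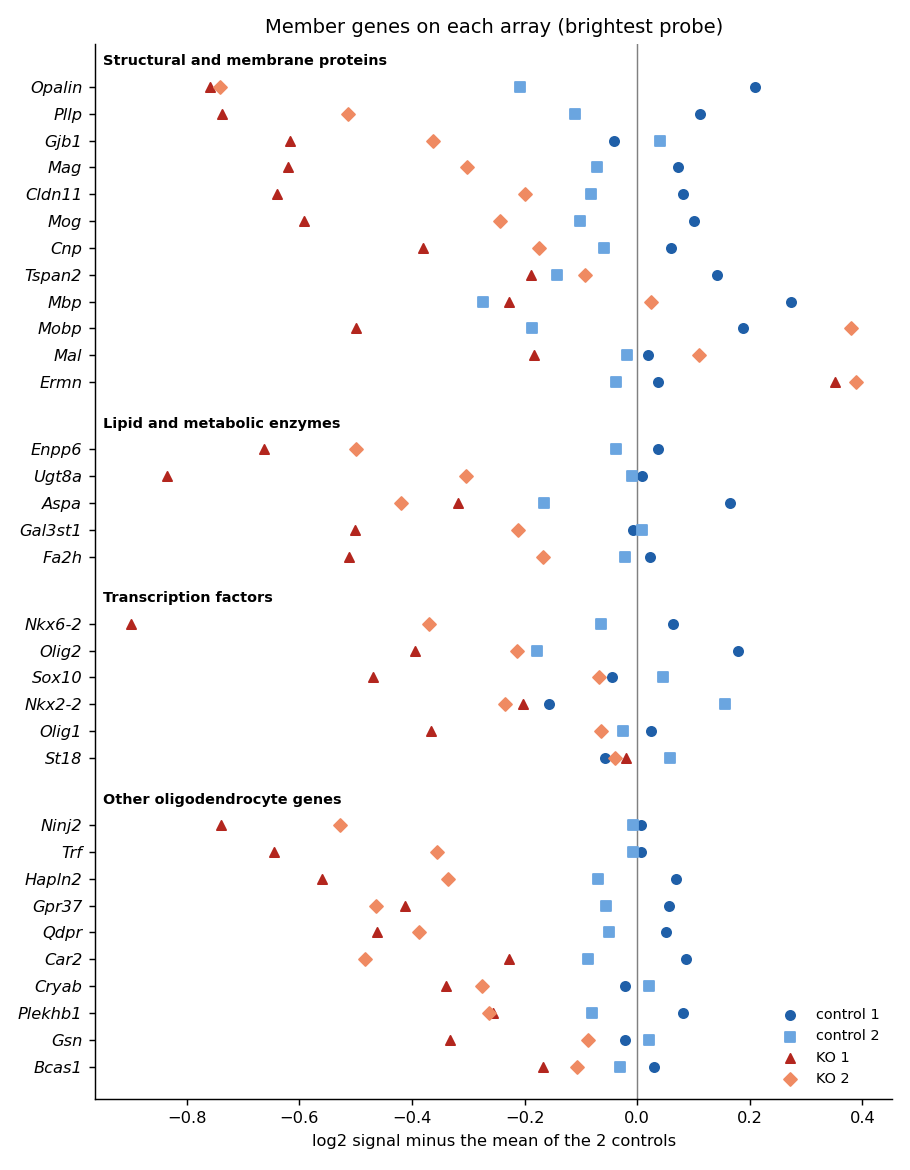
Each row is a member gene and each point 1 array, as the log2 signal of the gene's brightest probe minus the mean of the 2 controls, with genes grouped by role. Most KO points (triangles and diamonds) lie left of the control points (circles and squares); Ermn is the gene with both KO points to the right, and Mal, Mobp, Mbp, Tspan2 and St18 overlap.

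The promoters of 5 members are shown because each of these genes had the largest difference of its role, or, for Ermn, a difference in the opposite direction. They come from RefSeq sequences of build GRCm38.p6, from 250 bases before the gene's start to 50 after it, and 24 of the 34 members matched an entry. Opalin lies at chr19:41077064-41077363 on the minus strand, Enpp6 at chr8:46986637-46986936 on the plus strand, Nkx6-2 at chr7:139582748-139583047 on the minus strand, Ninj2 at chr6:120093130-120093429 on the plus strand and Ermn at chr2:58052815-58053114 on the minus strand. Capitals mark exact matches, on either strand, to core letters known for SOX factors (AACAAT or ACAAAG), for Myrf (CTGGCAC or CTGGTAC) and for the E-box of Olig factors (CAGATG or CAGCTG); no motif contains another.
Opalin: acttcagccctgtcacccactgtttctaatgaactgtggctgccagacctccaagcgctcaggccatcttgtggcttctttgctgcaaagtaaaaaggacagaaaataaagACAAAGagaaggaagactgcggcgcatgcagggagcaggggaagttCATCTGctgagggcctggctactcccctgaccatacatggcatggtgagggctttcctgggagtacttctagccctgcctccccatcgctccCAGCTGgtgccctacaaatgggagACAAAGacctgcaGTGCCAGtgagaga
Enpp6: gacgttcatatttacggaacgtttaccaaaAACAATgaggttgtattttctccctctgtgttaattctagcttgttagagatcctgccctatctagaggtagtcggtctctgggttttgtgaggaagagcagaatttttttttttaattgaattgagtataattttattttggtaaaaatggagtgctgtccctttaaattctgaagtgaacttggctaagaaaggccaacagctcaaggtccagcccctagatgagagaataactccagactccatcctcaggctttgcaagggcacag
Nkx6-2: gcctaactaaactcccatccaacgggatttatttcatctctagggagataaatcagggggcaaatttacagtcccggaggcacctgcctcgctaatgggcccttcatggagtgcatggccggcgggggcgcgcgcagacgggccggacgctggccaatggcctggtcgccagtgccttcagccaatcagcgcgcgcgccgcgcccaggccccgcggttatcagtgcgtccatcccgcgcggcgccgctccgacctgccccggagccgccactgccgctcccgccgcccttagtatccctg
Ninj2: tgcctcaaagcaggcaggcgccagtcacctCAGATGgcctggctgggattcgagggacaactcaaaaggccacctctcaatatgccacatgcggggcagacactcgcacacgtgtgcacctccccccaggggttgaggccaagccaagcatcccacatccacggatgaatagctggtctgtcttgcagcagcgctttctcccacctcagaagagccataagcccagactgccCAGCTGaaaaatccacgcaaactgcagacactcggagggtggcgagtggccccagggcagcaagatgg
Ermn: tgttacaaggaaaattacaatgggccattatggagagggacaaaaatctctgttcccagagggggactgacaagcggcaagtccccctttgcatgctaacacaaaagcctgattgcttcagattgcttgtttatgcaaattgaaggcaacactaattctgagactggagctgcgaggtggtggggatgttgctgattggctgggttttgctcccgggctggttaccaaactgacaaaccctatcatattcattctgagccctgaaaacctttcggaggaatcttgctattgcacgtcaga

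In these windows Opalin had 2 SOX, 1 Myrf and 2 E-box matches, Enpp6 had 1 SOX match and Ninj2 had 2 E-box matches. The windows of Nkx6-2 and Ermn held none of these letters. Over the 24 members with an entry, 9 (37.5%) had a SOX match, 5 (20.8%) a Myrf match and 10 (41.7%) an E-box match. Over all 27025 genes with a promoter of the same length, the shares were 27.2%, 7.07% and 30.4%. The 5 members with Myrf letters were Mog, Mag, Cnp, Opalin and Hapln2. Where a gene had several entries the one listed first was read, and no test was made of these shares. Mbp, Fa2h, Myrf, Sox10, Olig1, St18, Trf, Bcas1, Car2 and Cryab had no entry.

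Among the structural and membrane proteins, Opalin, a sialylated membrane protein of oligodendrocytes, had the largest difference. It read 0.18 and −0.24 in the controls and −0.79 and −0.77 in KO, a difference of −0.75 (SE 0.17; limma adjusted p 0.273), or 59.5% of control. The KO arrays nearly coincided, while the controls were further apart and still both above them. Pllp, or plasmolipin, a membrane proteolipid of myelin, read 1.83 and 1.61 in the controls and 0.98 and 1.20 in KO (difference −0.62, SE 0.14, limma adjusted p 0.273). Gjb1 encodes a connexin that links layers of myelin through gap junctions. It read 2.66 and 2.74 in the controls and 2.08 and 2.34 in KO, 71.2% of control (difference −0.49, SE 0.13, limma adjusted p 0.293).

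Next came adhesion and junction proteins of the sheath. Mag, the adhesion molecule of the innermost myelin layer facing the axon, read 4.53 and 4.39 in the controls and 3.84 and 4.16 in KO, a difference of −0.46 (SE 0.15). Mog, on the outermost surface of the sheath, read 1.95 and 1.75 in the controls and 1.26 and 1.61 in KO, a difference of −0.42 (SE 0.17). Cldn11, the claudin of myelin tight junctions, read 4.80 and 4.64 in the controls and 4.08 and 4.52 in KO, a difference of −0.42 (SE 0.19). In each of these the groups did not overlap, and KO replicate 1 was the lowest array by a wide margin. Cnp, a phosphodiesterase that keeps cytoplasmic channels in myelin open, showed a smaller difference of −0.28 (SE 0.13), from 5.30 and 5.18 to 4.86 and 5.07.

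For Mbp, Mobp, Mal and Tspan2 the groups overlapped. Mbp, which holds the cytoplasmic faces of the membrane together, read 4.73 and 4.18 in the controls and 4.23 and 4.48 in KO on its brightest probe, a difference of −0.10 (SE 0.23). Mobp, another basic protein of myelin, read 5.07 and 4.69 in the controls and 4.38 and 5.26 in KO, so that the KO arrays held both the lowest and the highest value. Mal, a proteolipid that sorts membrane to myelin, read 6.02 and 5.98 in the controls and 5.82 and 6.11 in KO. Tspan2, a tetraspanin, read 4.13 and 3.85 in the controls and 3.80 and 3.90 in KO. The differences were −0.06 (SE 0.34) for Mobp, −0.04 (SE 0.14) for Mal and −0.14 (SE 0.14) for Tspan2. Leaving out KO replicate 1 turned Mal, Mobp and Mbp to 0.11, 0.38 and 0.02, and leaving out control replicate 1 turned Mobp, Mbp and Tspan2 to 0.13, 0.17 and 0.00077.

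Ermn was the exception among the members. It encodes ermin, a cytoskeletal protein of maturing oligodendrocytes, and read 4.66 and 4.59 in the controls and 4.98 and 5.01 in KO. The KO mean was 129% of control (difference 0.37, SE 0.10, limma adjusted p 0.294), and the replicates of each group lay close together. Its difference was between 0.33 and 0.45 under every alternative tried, with an adjusted p between 0.128 and 0.674. A single probe measured Ermn.

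**Figure D2:**
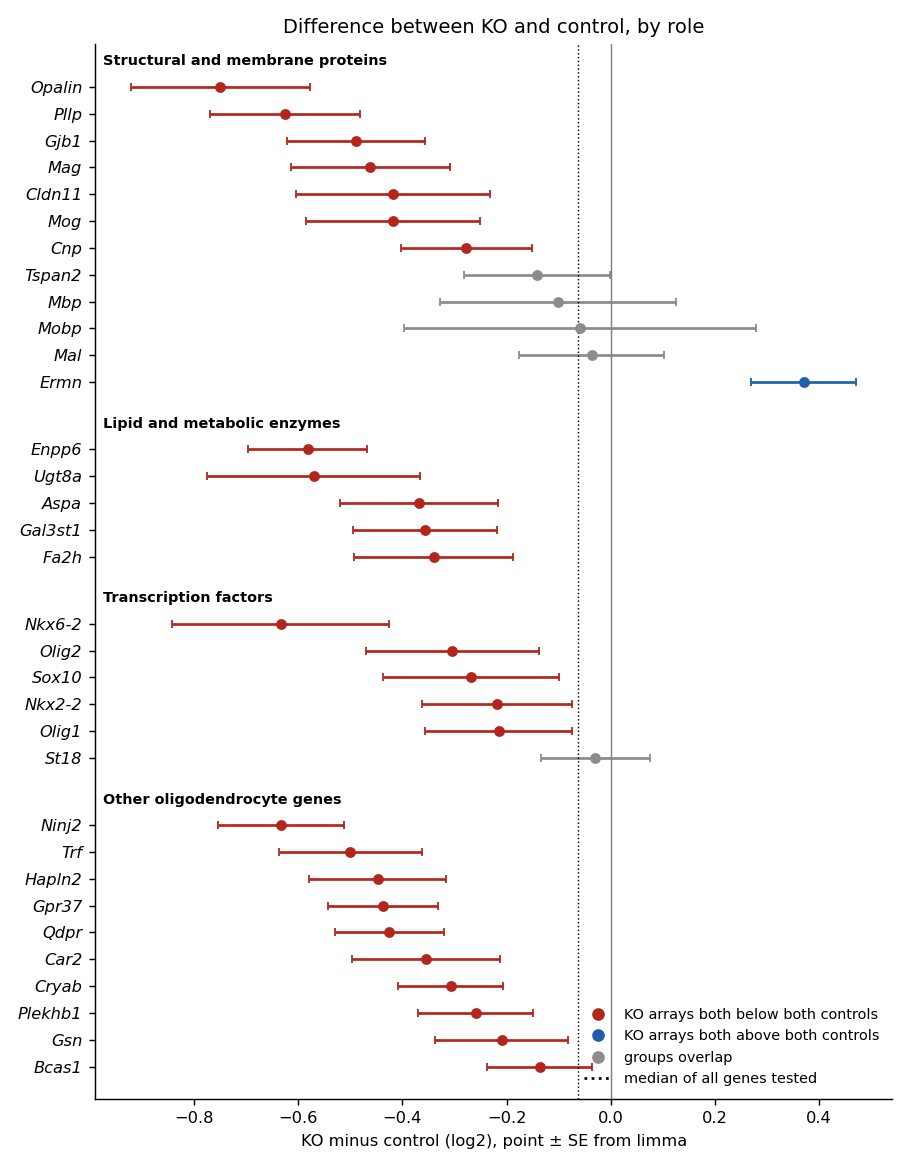
Points give the KO minus control difference of each member (log2) and bars its standard error from limma; colour shows whether the groups overlap, and the dotted line is the median of all genes tested, −0.06. All 5 lipid and metabolic enzymes and all 10 other oligodendrocyte genes have both KO arrays below both controls, while 4 of the 12 structural genes overlap and Ermn is at 0.37; Mal, Mobp and St18, drawn just below 0, turn positive under quantile and spike-in scaling.

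The lipid and metabolic enzymes were lower in KO in 5 of 5 genes, against 63.9% of all genes. Both KO arrays lay below both controls in each, against 32.1% of all genes. The median difference of these enzymes was −0.37, or 77.4% of control. Enpp6, a choline phosphodiesterase of newly formed oligodendrocytes, read −0.47 and −0.54 in the controls and −1.17 and −1.01 in KO (difference −0.58, SE 0.11, limma adjusted p 0.273). Ugt8a, which makes galactosylceramide, the main glycolipid of myelin, read 1.73 and 1.71 in the controls and 0.89 and 1.42 in KO (difference −0.57, SE 0.20, limma adjusted p 0.347). Its KO arrays were further apart than their nearer member was from the controls. Gal3st1, which sulfates that lipid to sulfatide, read 0.97 and 0.99 in the controls and 0.48 and 0.77 in KO. Fa2h, which hydroxylates the fatty acids used in these lipids, read 3.65 and 3.61 in the controls and 3.12 and 3.46 in KO. Gal3st1 differed by −0.36 (SE 0.14) and Fa2h by −0.34 (SE 0.15), and in both KO replicate 1 was the lower. Aspa, which frees acetate from N-acetylaspartate, read 1.58 and 1.25 in the controls and 1.1 and 0.99 in KO, a difference of −0.37 (SE 0.15).

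The transcription factors showed the smallest median difference of the roles, −0.24 over 6 genes, or 84.5% of control, although no test was made between roles. Nkx6-2, a homeobox factor of myelinating oligodendrocytes, stood below the others: it read 2.35 and 2.22 in the controls and 1.38 and 1.91 in KO (difference −0.63, SE 0.21, limma adjusted p 0.330). Olig2, which commits cells to the lineage, read −0.81 and −1.17 in the controls and −1.39 and −1.21 in KO (difference −0.30, SE 0.17, limma adjusted p 0.470). Sox10, which drives myelin gene transcription, read 2.34 and 2.43 in the controls and 1.91 and 2.32 in KO (difference −0.27, SE 0.17, limma adjusted p 0.517). For both, KO replicate 2 lay only just below the lower control. Olig1 read 3.04 and 2.99 in the controls and 2.65 and 2.95 in KO, and Nkx2-2, a factor of differentiating precursors, read −1.0 and −0.69 in the controls and −1.05 and −1.08 in KO. Each of these differed by −0.22 (SE 0.14). St18, a zinc finger factor, read 3.79 and 3.90 in the controls and 3.82 and 3.80 in KO, with a difference of −0.03 (SE 0.10) that turned positive under quantile and spike-in scaling.

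Myrf was the member without a measured level. Its 1 probe read −5.61 and −6.41 in the controls and −5.75 and −6.32 in KO, and it was well above background on 1 array of each group.

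The other oligodendrocyte genes were lower in 10 of 10, against 63.9% of all genes. Both KO arrays lay below both controls in each, against 32.1% of all genes. The median difference of this group was −0.39, or 76.3% of control. Ninj2, an adhesion molecule, read 0.68 and 0.67 in the controls and −0.06 and 0.15 in KO (difference −0.63, SE 0.12, limma adjusted p 0.273). Its spot on control replicate 1 lay on the patch of raised background, and Ninj2 had no value with patch spots left out. The part of the patch in its difference was not tested. Trf, the iron carrier transferrin, read 6.42 and 6.41 in the controls and 5.77 and 6.06 in KO (difference −0.50, SE 0.14, limma adjusted p 0.296). Trf is also made by choroid plexus, whose markers were high on control replicate 2 alone. The part of choroid plexus in the Trf difference was not tested. Gpr37, an orphan receptor of maturing oligodendrocytes, read 2.01 and 1.89 in the controls and 1.54 and 1.49 in KO (difference −0.44, SE 0.11, limma adjusted p 0.279). Qdpr, which regenerates tetrahydrobiopterin, read 5.63 and 5.53 in the controls and 5.11 and 5.19 in KO (difference −0.42, SE 0.11, limma adjusted p 0.283). For Gpr37 and Qdpr the KO arrays were close together.

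The rest of this group also had both KO arrays below both controls. Hapln2, which binds hyaluronan at nodes of Ranvier, differed by −0.45 (SE 0.13), and Car2, a carbonic anhydrase, by −0.36 (SE 0.14). Cryab, a small heat shock protein, differed by −0.31 (SE 0.10) and Plekhb1, a membrane-associated protein, by −0.26 (SE 0.11). Gsn, an actin-severing protein, differed by −0.21 (SE 0.13). Bcas1, a marker of oligodendrocytes that have begun to myelinate, had the smallest difference, −0.14 (SE 0.10), from 5.62 and 5.56 to 5.42 and 5.48.

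The KO animals differed from each other in how far their members lay from the controls. KO replicate 1 was the lowest of the 4 arrays for 25 of 33 members and KO replicate 2 for 5. Over all 16524 genes these counts were 5419 and 5563. Against the control mean, the median of the structural genes was −0.55 on KO replicate 1 and −0.19 on KO replicate 2. For the lipid and metabolic enzymes these values were −0.51 and −0.30, and for the transcription factors −0.38 and −0.14. The other oligodendrocyte genes showed the smallest gap, with −0.38 and −0.35. The medians of the structural genes and factors rest on that array: without KO replicate 1 they were −0.19 and −0.14, and without KO replicate 2 they were −0.55 and −0.38. Over all members, the replicates of a gene lay a median of 0.225 apart in KO and 0.116 apart in control.

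**Figure D3:**
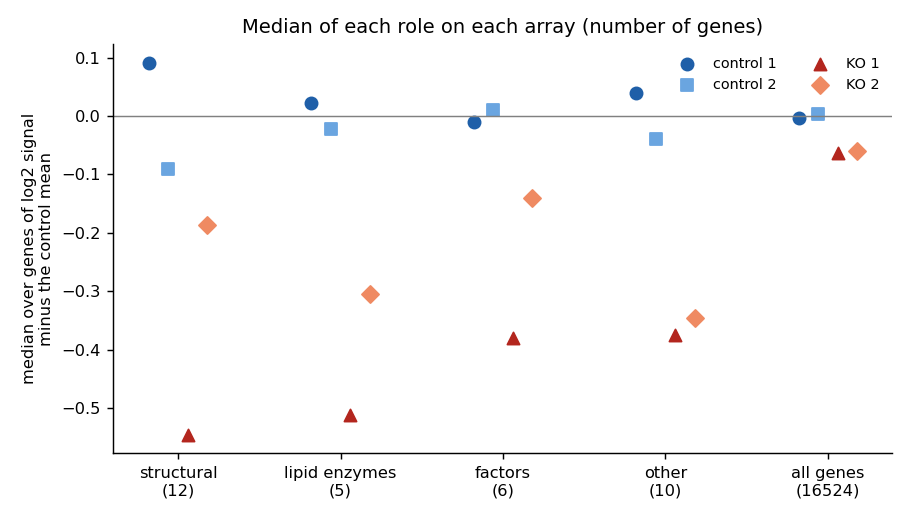
Points give, for each array, the median over the genes of a role of the log2 signal minus the control mean, with the number of genes in brackets. KO replicate 1 lies lowest for all 4 roles, at −0.55 for the structural genes, KO replicate 2 lies between it and the controls, and the medians of all genes on the KO arrays are both −0.06.

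Of the members, 11 had more than 1 probe, and in 9 of these all probes had the same direction. The 3 Qdpr probes differed by −0.42, −0.47 and −0.44, the 2 Trf probes by −0.50 and −0.56, and the 2 Enpp6 probes by −0.58 and −0.52. These agree within their standard errors. The 3 Mbp probes did not share a direction: beside the brightest, 1 probe for the same accession differed by −0.37 (SE 0.15), from 3.38 and 3.12 to 2.78 and 2.98. The probe listed for NM_001025245, another Mbp transcript, differed by 0.10 (SE 0.11), from 2.97 and 2.84 to 3.0 and 3.0. Mbp makes several transcripts, some of them outside myelin, and which of them each probe binds was not tested. For St18 the dimmer probe differed by 0.13 (SE 0.11) where the brighter differed by −0.03.

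**Figure D4:**
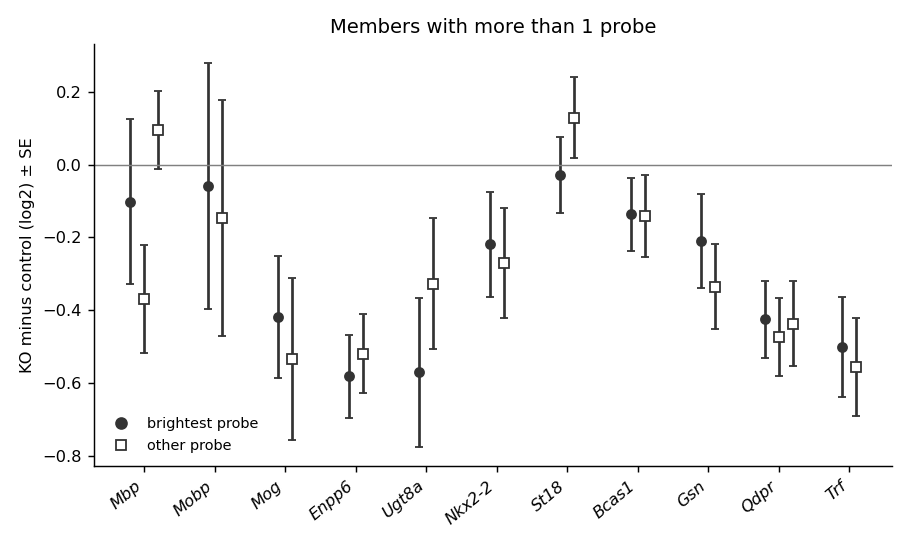
KO minus control (log2) with its standard error for each probe of the 11 members with more than 1 measured probe; filled circles are the brightest probe, which gives the gene's value, and open squares the others. The probes of Qdpr, Trf and Enpp6 lie together, and those of Mbp (−0.10, −0.37 and 0.10) and St18 (−0.03 and 0.13; the first turns positive under quantile and spike-in scaling) lie on both sides of 0.

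A list of 30 further oligodendrocyte genes was read beside the members. Like the members, it was chosen with earlier results of these data known. Of the 30 genes, 28 had a lower mean in KO, against 63.9% of all genes, and the median difference was −0.25. Both KO arrays lay below both controls for 19, against 32.1% of all genes, and above for 1, against 13.8%. At an unadjusted p under 0.05, 7 were lower, against 5.65% of all genes, and 0 higher, against 3.16%. Klk6, a secreted protease of a subset of mature oligodendrocytes, read 1.44 and 1.16 in the controls and 0.03 and 0.10 in KO, a difference of −1.24 (SE 0.14; limma adjusted p 0.273), larger than that of any member. Ppp1r14a, an inhibitor of myosin phosphatase, differed by −0.86 (SE 0.15) and Tmem88b by −0.51 (SE 0.12).

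Genes for the making and breakdown of ceramide and galactolipids, upstream and downstream of Ugt8a and Gal3st1, had a median difference of −0.21 over 13 genes. Both KO arrays lay below both controls for 8 of them, against 32.1% of all genes, and above for 0, against 13.8%. Smpd1, the lysosomal sphingomyelinase, differed by −0.32 (SE 0.10), Cers2, which makes ceramide with very long chains, by −0.23 (SE 0.11), and Degs1, which makes ceramide from dihydroceramide, by −0.21 (SE 0.10). Of these 13, only Smpd1 was lower at an unadjusted p under 0.05, against 5.65% of all genes, and 0 were higher, against 3.16%. Markers of oligodendrocyte precursors had a median of −0.17 over 10 genes. For 5 of them both KO arrays lay below both controls, against 32.1% of all genes. At an unadjusted p under 0.05, 0 were lower, against 5.65% of all genes, and 0 higher, against 3.16%. Neu4, Lhfpl3 and Cacng4 differed by −0.37 (SE 0.15), −0.27 (SE 0.11) and −0.23 (SE 0.12). Pdgfra, the growth factor receptor that defines these cells, differed by −0.04 (SE 0.19), with groups that overlapped.

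Markers of other cells in the tissue were read beside the members. Microglia genes were lower in 12 of 12, with a median of −0.21, and 6 of them had both KO arrays below both controls; over all genes 63.9% were lower and 32.1% lay below both controls. Summed, they stood at 91.0 and 82.1 on the control arrays and at 79.2 and 82.4 on the KO arrays, and P2ry12, Trem2 and Csf1r differed by −0.31, −0.30 and −0.23. Astrocyte and Bergmann glia genes had a median of −0.09, with 7 of 10 lower in KO, against 63.9% of all genes, and 3 higher. The groups overlapped for 6 of them, as they did for 8934 of all 16524 genes. Summed levels of this list were 548 and 548 in the controls and 500.0 and 538 in KO. The 3 with the smallest p, Hopx, S100b and Fabp7, differed by −0.29 (SE 0.11), −0.29 (SE 0.12) and −0.58 (SE 0.33), and the groups overlapped for Fabp7. The Purkinje and granule cell medians were −0.06 and 0.02, near that of all genes. Among the genes of these lists with the smallest p were Slc1a6 (−0.25) and Cbln1 (−0.15), and Calb2 (0.40), Gabra6 (−0.10) and Pax6 (0.10). The part of these cells in the result for the members was not tested.

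Schwann cells, which myelinate peripheral nerves and share many members, could enter with nerve roots. Of their 9 markers 6 had a measured probe, with a summed level of 1.16 and 1.61 in the controls and 0.90 and 0.68 in KO; Pmp2, Foxd3 and Scn7a were not measured. Ncmap differed by −0.56 (SE 0.23) and Prx by −0.30 (SE 0.19). The part of Schwann cell markers in the difference of the members was not tested. Of the members, 23 of 33 were highest on control replicate 1 and 7 on control replicate 2, against 4793 and 4898 of all 16524 genes. Choroid plexus genes had a median of −2.20 over 11 genes, all highest on control replicate 2; Clic6, Steap1 and Prlr differed by −1.27, −1.66 and −2.36. Red blood cell genes had a median of −0.24 over 6 genes, 5 of them highest on that array, and Alas2, Bpgm and Hba-a1 differed by −0.54, −0.22 and −0.26. Without control replicate 2 the median of the members was −0.44, in place of −0.36.

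Tissue from the brainstem would add white matter, so its markers were read as well. Of 17 genes 6 had a measured probe, with summed levels of 1.21 and 0.59 in the controls and 0.76 and 0.85 in KO and a median difference of 0.07; 9 of the 10 Hox genes were not measured. Slc18a3, Chat and Tph2 differed by −2.39, 0.31 and 0.16, and Slc18a3 was high on control replicate 1 alone, where its spot lay on the patch of raised background. Whether dissection differed between the mice was not tested.

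**Figure D5:**
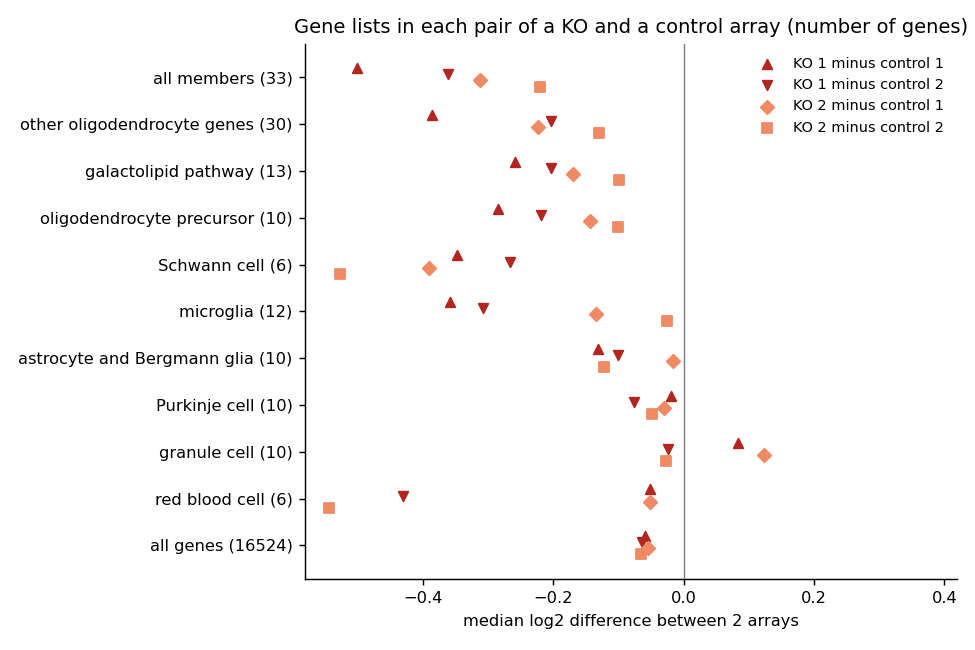
For each gene list (number of measured genes in brackets), the median log2 difference in each of the 4 KO and control array pairs. The members lie between −0.50 and −0.22 and the median of all genes is near −0.06; the pairs with KO replicate 1 (triangles) lie lower than those with KO replicate 2 for the members, the precursors and the microglia genes, and red blood cell genes lie lowest against control replicate 2.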

How the data were processed

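RNA from 4 cerebella was labelled with Cy3 from 150 ng each, per the labels' protocols. Per the file headers, the deposited scanner files come from Agilent Feature Extraction, version 12.1.1.1 (the submitters' processing notes name 10.7.1.1). Their processed signal is, per the file headers, a linear intensity from which that software has removed background and a spatial trend, with no normalization between arrays. Flags for controls, outliers, saturation and signal over background are other columns of the deposited files. The deposited series table holds log2 values centred per probe, and its centring is unknown. Its array differences were set against those of the scanner values scaled to the 75th percentile, for the 14114 probes brighter than that percentile. With the median offset of each array pair taken off (at most 0.0051 in size), all of these probes matched to within 0.01.

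Here, the spots of a probe were averaged as log2 processed signal, without control and outlier spots (65 to 176 per array), and the array's 75th percentile was subtracted. Of 35886 probes with a RefSeq accession 32994 were named through a RefSeq table of GRCm38.p6. Probes well above background on both arrays of a group were kept (37516, for 16524 genes) and compared by group alone with limma 3.58.1 (lmFit and eBayes, R 4.3.3), adjusting p-values by Benjamini-Hochberg over all of them. The number of arrays limits the precision. A gene takes its brightest probe. A summed level adds linear signals over the measured genes of a list. Full values are given for the 4 members of each role with the smallest p, and up to 3 such genes of other lists, of which some are not reported here; the analysis was tested on simulated data. Nothing in the labels says more of the mice than 1 sample each, so p-values measure the spread between these samples.

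The members and lists were chosen with earlier results of these data known. Alternatives were other scalings (quantile, the median of probes well above background on all arrays, 7 spike-in probes), the series table, normexp (offset 50) on median spot brightness, since the files hold no mean, filters, flagged spots, patches (local background over 1.5 times the array median, within 2 rows or columns), robust variances with an intensity trend, a block for the replicate number, the mean of a gene's probes and each array left out.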

Additional observations from a re-analysis of the deposited data

How the results depend on the processing

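Of 527 values of 33 members under 16 alternatives, 14 turned in direction, all of them among 5 genes with differences from −0.14 to −0.03 in the main setting, and none passed the adjusted threshold (lowest adjusted p 0.122). Under quantile normalization Mal turned to 0.045, Mobp to 0.00055 and St18 to 0.023, and under spike-in scaling to 0.048, 0.025 and 0.055. With the mean of all probes St18 was 0.050. With single arrays left out, Mobp ran from −0.50 to 0.38, Mbp from −0.38 to 0.17, Mal from −0.18 to 0.11, Tspan2 from −0.28 to 0.00077 and St18 from −0.087 to 0.028.

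No probe passed the adjusted threshold; 1 did with quantile normalization, with spike-in scaling, with patch spots left out and with arrays scaled to the median of bright probes, 2 did under normexp and 4 under an intensity trend. With an array left out, 0 to 98 did, 98 without control replicate 2; such a fit takes the spread of the single array from the group that has 2. Members lower at an unadjusted p under 0.05, 13 of 33, were 20 under normexp, 21 under an intensity trend and 3 to 17 with an array left out. The members below both controls were 27, against 32.1% of all genes. They were 24 under quantile normalization, against 24.9%, and 27 with arrays scaled to the median of bright probes, against 32.7%. With all arrays in use they ran from 22 to 27, and the share over all genes moved with the setting too. The median of the other oligodendrocyte genes, −0.39, was −0.33 under quantile normalization and −0.31 under spike-in scaling. With an array left out it ran from −0.46 to −0.35, that of the lipid enzymes from −0.53 to −0.30, of the factors from −0.38 to −0.14, of the structural genes from −0.55 to −0.19 and of all members from −0.46 to −0.24. Every such median stayed below 0. The cause of these moves was not tested.

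The replicate number as a block changed no adjusted call. Same-numbered arrays deviated together only weakly (r = 0.12 over 37516 probes), and with 2 pairs the numbers are not taken to pair the mice. With patch spots left out, Ninj2 had no value.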
